A study of Gallus gallus with 3 samples.

Results

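The genes described here carry the WNT, BMP, Notch and hedgehog signals of the intestinal stem cell niche, measured in the jejunal mucosa of hens. They were chosen by a rule on gene symbols that used no measured value, though earlier results of these data were known. The rule was met by 87 of the 15675 genes with a value. The WNT pathway holds 42 of them, the BMP pathway 24, Notch 13 and hedgehog 8. One of the BMP matches, BMP2K, is a kinase and not a ligand, and was matched by its name. The hens were Leuang Hang Kao breeders of 28 weeks, kept at 23 °C as the thermoneutral arm of a study whose other arm spent 6 h at 36 °C, each arm holding 25 birds. For 12 of the control hens, RNA was combined into 3 libraries of 4 birds, numbered here as pools 1, 2 and 3. The heated hens were not analysed here. All values come from 1 group, so the text gives levels, the order of genes within a pool and the spread between pools. Each pool averages 4 hens, and bird-to-bird variation cannot be read from it. The tissue is a bulk mucosa with epithelium, stroma, muscle, vessels and leukocytes, and each level is an average over all of them.

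These pathways set where cells divide and where they mature. In the mammalian intestine, WNT proteins and R-spondins from the cells around the crypt keep stem cells dividing, BMP proteins act towards the villus and favour maturation, and secreted antagonists such as GREM1 and NOG hold BMP away from the crypt. Notch acts between neighbouring cells and sets the choice between absorptive and secretory fates, while hedgehog proteins pass from the epithelium to the mesenchyme below and act through PTCH1, SMO and the GLI factors. In chicken embryos, hedgehog and BMP signals take part in patterning the gut wall and its villi.

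Levels are FPKM, fragments scaled to transcript length and library size, as the authors deposited them, with the mean ± SD over the 3 pools (n = 3). Sequencing depth is unknown, so genes near 1 FPKM are the least precise. A mean of at least 1 FPKM was reached by 55 of the 87 members, against 73.8% of all genes. Of the other 32, 10 had a mean between 0.5 and 1 FPKM, 22 were lower and none was listed at 0 in every pool. The median member, with the low ones kept, was at 2.42 FPKM, and the median of all genes was 6.64 FPKM. The 6 members at 20 FPKM or more were DKK3, FZD5, HES4, SMAD6, AXIN1 and SFRP1.

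**Figure D1:**
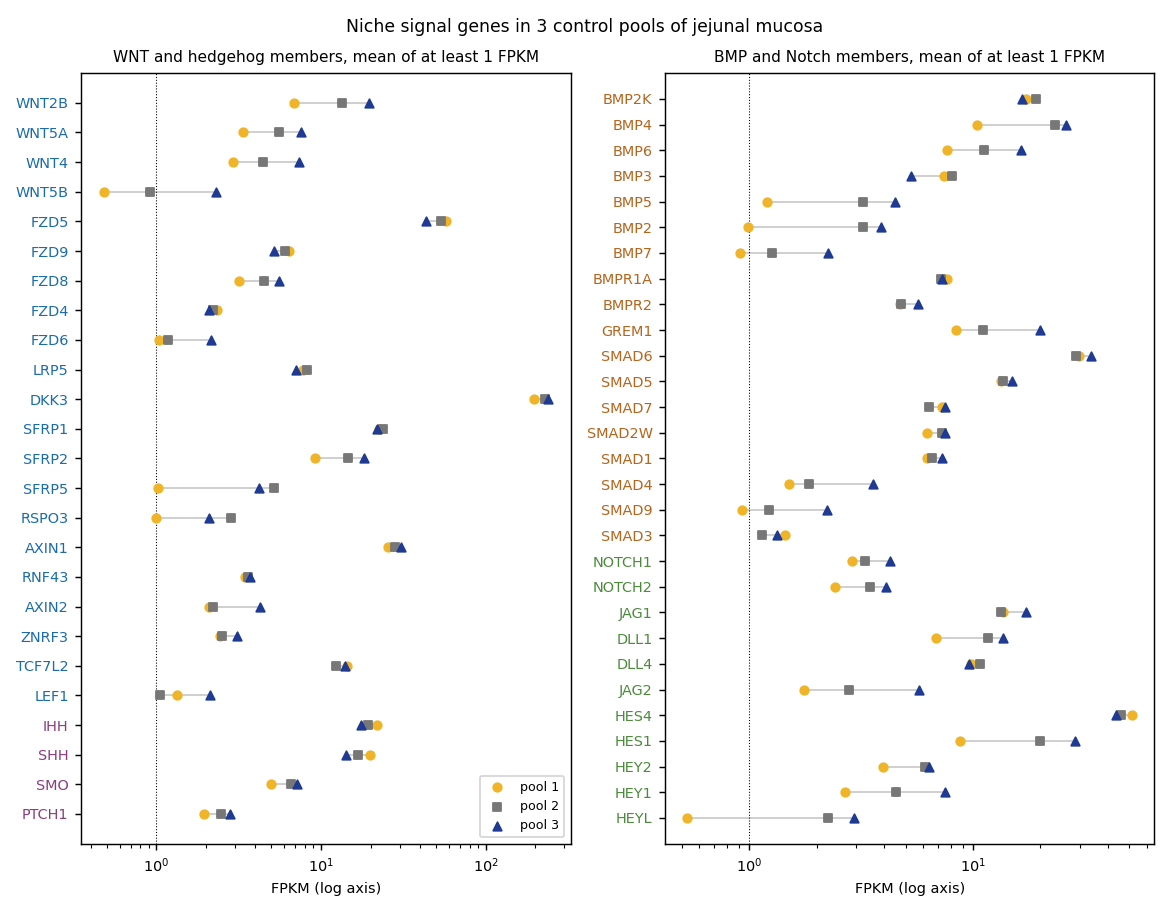
FPKM (log axis) of 54 members averaging 1 FPKM or more in the 3 control pools, by pathway, with a grey line from the lowest to the highest pool and a dotted line at 1 FPKM. DKK3, at 196.18 to 239.93 FPKM, lies above all others. Most WNT and BMP ligands span wider ranges between pools than the receptors FZD4 and BMPR1A, at 0.11 and 0.07 on the log2(FPKM + 1) scale. Receptors differ among themselves, and FZD8 and FZD6 have ranges of 0.65 and 0.62.

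The pools differed in marker genes of several tissue compartments, and many members differed between them too. All 12 smooth muscle markers and all 12 fibroblast and stroma markers were lowest in pool 1 and highest in pool 3. The summed level of the smooth muscle list was 458 FPKM in pool 1, 801 in pool 2 and 1316 in pool 3, and that of the fibroblast list was 227, 437 and 714 FPKM. Endothelial markers summed to 96.2, 137 and 232 FPKM, and 8 of the 9 that reached a mean of 1 FPKM followed the same order. Enterocyte markers ran the other way, at 57854, 50639 and 18761 FPKM, with pool 1 highest and pool 3 lowest in 9 of 11 measured genes. FABP1 held 35.6% of that sum. All 11 genes were lower in pool 3 than in pool 1, from 0.217 times for APOA4 to 0.799 times for CDX1, so the sum overstates the fall of most. Crypt stem and proliferation markers summed to 321, 488 and 571 FPKM, and 9 of 11 were lowest in pool 1 and highest in pool 3. No marker in these 5 lists was listed at 0 in a pool. In bulk samples, fewer cells of a type and less RNA per cell cannot be told apart, and the part of these markers in the results below was not tested. For other cells the lists were mixed, and some sums rest on 1 gene. Red blood cell markers were higher in pool 3 than in pool 1 in 3 of 3 genes, at a sum of 57.2, 158 and 161 FPKM, and T and NK lymphocyte markers in 8 of 9, at 800, 862 and 1002. Macrophage and dendritic markers were higher in 5 of 7 genes, although their sum, 91.7% of it CD74, was 3347, 3303 and 3195 FPKM. Goblet markers were lower in pool 3 in 5 of 6 genes, although their sum, 81.0% of it AGR2, was 1665, 1990 and 1910 FPKM. B and plasma cell markers were higher in pool 3 in 4 of 6 genes, with a sum of 1410, 1943 and 3517 FPKM that was 97.8% JCHAIN. Enteroendocrine markers, higher in 4 of 9 genes, summed to 1272, 1435 and 1088 FPKM, those of enteric neurons and glia, higher in 6 of 7, to 10.2, 11.7 and 12.7, and those of the exocrine pancreas, higher in 3 of 5, to 11.1, 8.66 and 16.3.

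Of the 55 members that reached this mean, 35 were lowest in pool 1 and highest in pool 3, against 39.0% of all genes with such a mean. This order was picked with the stromal markers of these pools known from earlier results of these data. The shares are therefore descriptions and not a test. The opposite order, with pool 1 highest and pool 3 lowest, was found for FZD5, FZD9, FZD4, HES4, IHH and SHH, 6 of 55 against 16.8% of all genes. When pools were rescaled by the median ratio, 29 members had the first order, against 29.1% of all genes, and 8 the second, against 26.03%. RNF43, ZNRF3, BMPR2, SMAD5, SMAD2W and HEY2 left the first order, and RNF43 and BMPR1A joined the second. The median difference of log2(FPKM + 1) between pool 3 and pool 1 was 0.44 over these members and 0.13 over all genes. This shift depended on level. From 1 to under 5 FPKM it was 0.75 in members and 0.34 in all genes, and from 5 to under 20 FPKM 0.22 and 0.15. At 20 FPKM or more it was 0.07 and 0.002. A gap of more than 1 on this scale separated the highest pool from the lowest in 13 members, against 7.06% of all genes. These were SFRP5, HES1, WNT2B, HEYL, BMP5, BMP2, JAG2, BMP4, HEY1, WNT5B, GREM1, WNT4 and BMP6. All 13 were lowest in pool 1, 12 were highest in pool 3 and SFRP5 was highest in pool 2. Of all genes with such a gap, 68.9% were lowest in pool 1 and 69.4% highest in pool 3. Without pool 1, none of the 60 members then at a mean of 1 FPKM differed by more than 1, against 1.76% of all genes, and without pool 3 the number was 5, against 1.62%. Low genes spread more in general: from 1 to under 5 FPKM, 8 of 24 members passed this limit, against 11.9% of all genes, and from 5 to under 20 FPKM, 5 of 25 members, against 6.14%. None of the 6 members at 20 FPKM or more did so, against 4.66%. In the same 3 bins, 19, 14 and 2 members were lowest in pool 1 and highest in pool 3, against 51.8%, 41.4% and 28.1% of all genes.

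**Figure D2:**
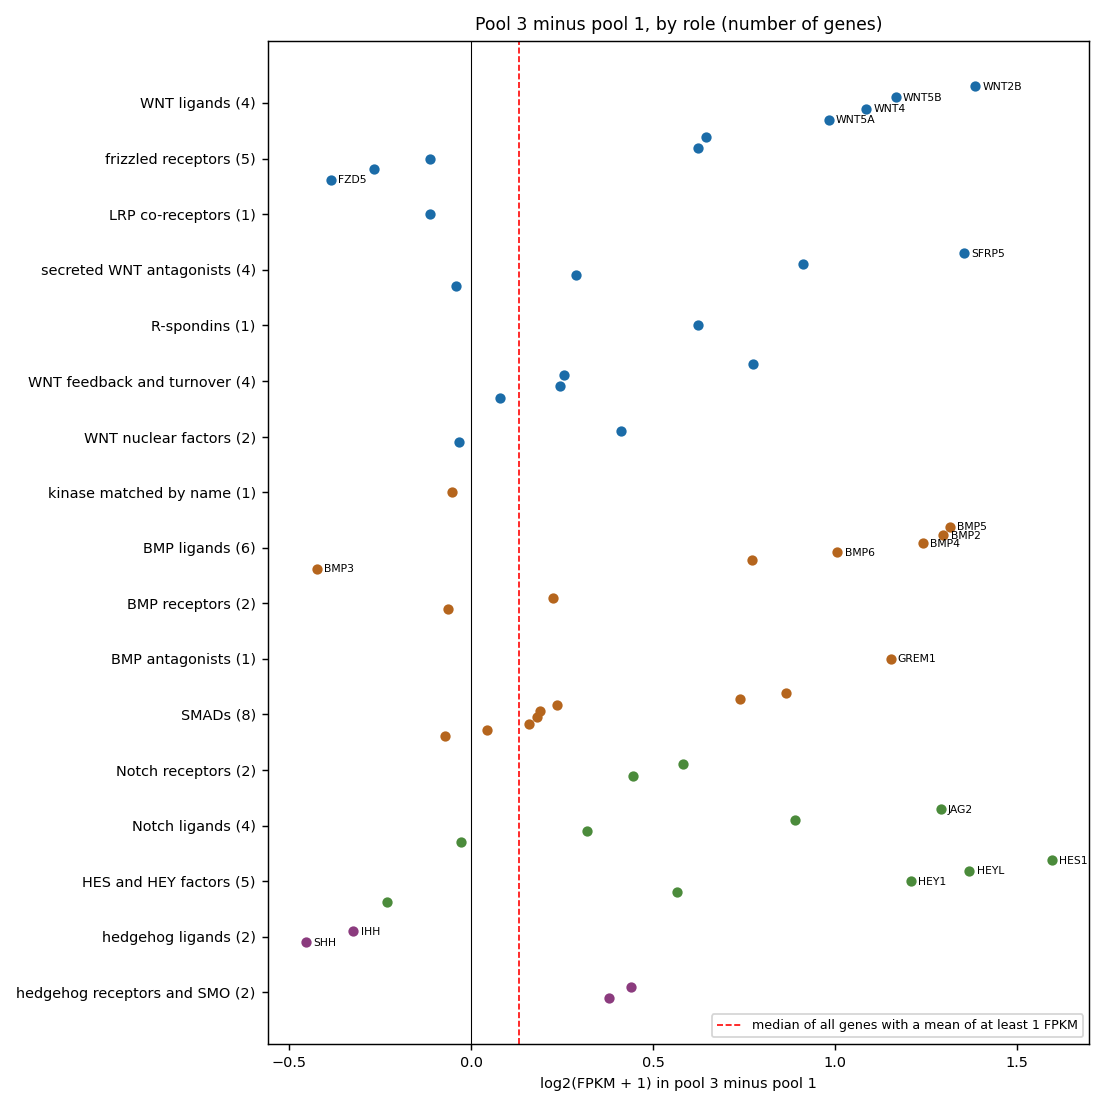
Difference of log2(FPKM + 1) between pool 3 and pool 1 for 54 members averaging 1 FPKM or more, in rows by role with the number of genes shown in brackets. The red dashed line is the median of all genes, 0.13, and all 4 WNT ligands and 5 of 6 BMP ligands lie to its right, while both hedgehog ligands lie to the left of 0.

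Few of the WNT ligands with a value reached 1 FPKM, and WNT2B led them. Of 16 WNT genes measured, 4 reached a mean of 1 FPKM, against 73.8% of all genes. The other 12 WNT genes lay between 0.00667 and 0.537 FPKM. WNT2B, a mesenchymal ligand that supports crypt stem cells in mice, was at 6.86, 13.45 and 19.52 FPKM in pools 1, 2 and 3. It held 49.3% ± 2.57 of the summed WNT ligand FPKM, a share that differed little between pools although the sum went from 14.75 in pool 1 to 39.25 in pool 3. WNT5A, the main ligand of the branch of WNT signalling that does not use beta-catenin, was at 3.36, 5.58 and 7.61 FPKM. WNT4 was at 2.94, 4.46 and 7.36 FPKM, and WNT5B at 0.48, 0.92 and 2.32 FPKM. All 4 ligands were lowest in pool 1 and highest in pool 3, by 2.26-fold to 4.83-fold in FPKM. This order was found in 39.0% of all genes averaging at least 1 FPKM, and in 51.8% of those from 1 to under 5 FPKM. The 4.83-fold is that of WNT5B, which was under 1 FPKM in pools 1 and 2, where a fold is least precise. WNT6 and WNT9B, which the crypt epithelium of mice makes, were at 0.08, 0.50 and 1.03 FPKM and at 0.03, 0.03 and 0.02. The remaining WNT genes, none of which reached 1 FPKM in any pool, were WNT1, WNT2, WNT7B, WNT8A, WNT8B, WNT9A, WNT10A, WNT11, WNT11B and WNT16. No value is listed under the symbols WNT3, WNT3A and WNT7A, so their levels are unknown.

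Most of the summed frizzled level came from FZD5. FZD5, which in mice is the frizzled of the intestinal epithelium that Paneth cells need, was at 57.31, 53.50 and 43.68 FPKM and held 75.9% ± 4.68 of that sum. FZD9 was at 6.41, 6.03 and 5.16 FPKM, and FZD4 at 2.34, 2.20 and 2.09. In these 3 receptors pool 1 was highest and pool 3 lowest, the reverse of the WNT ligands. FZD8 and FZD6 had the order of the ligands, at 3.20, 4.54 and 5.57 FPKM and at 1.04, 1.18 and 2.14. FZD1, FZD2, FZD3 and FZD7 had means under 1 FPKM, and FZD2 passed it in pool 3 at 1.33. Of the co-receptors that bind WNT together with a frizzled, LRP5 was at 7.76, 8.27 and 7.10 FPKM and LRP6 at 0.75, 0.86 and 1.16. LRP5 exceeded LRP6 in every pool, with a mean difference of 2.18 ± 0.24 in log2(FPKM + 1), and FZD5 exceeded FZD7 by 5.32 ± 0.34. With a pseudocount of 0.1 these differences were 2.95 and 7.02, since LRP6 and FZD7 are low.

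The summed level of the genes grouped here by name as secreted antagonists lay above that of the WNT ligands in every pool. DKK3 held 84.5% ± 0.833 of that sum, and whether it acts as a WNT antagonist here was not tested. DKK3, a divergent member of the dickkopf family, was at 196.18, 229.33 and 239.93 FPKM, the highest level of any member and above 96.7% of all genes. DKK1 and DKK2, the members that block LRP5 and LRP6, had means under 1 FPKM, and DKK1 was listed at 0 in pools 1 and 3. SFRP4 was listed at 0 in pools 1 and 2 and at 0.05 FPKM in pool 3. SFRP1, a decoy that binds WNT proteins, was at 22.46, 23.69 and 21.82 FPKM a range of 0.11 on the log2 scale. SFRP2, known from the mesenchyme, was at 9.17, 14.51 and 18.14 FPKM. SFRP5 was at 1.03, 5.20 and 4.19 FPKM and had the widest range of all 55 members, 1.61 on the log2 scale, with pool 1 apart from both others. SFRP1 exceeded SFRP2 in all pools, but by 1.21 in log2(FPKM + 1) in pool 1 and 0.25 in pool 3. The summed level of SFRP1, SFRP2 and SFRP5 was 2.21 times that of all WNT ligands in pool 1, 1.66 times in pool 2 and 1.12 times in pool 3.

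R-spondins amplify WNT signals through LGR receptors, and those with a value were low. No value is listed under the symbols RSPO2 and RSPO4. RSPO3 was at 1.0, 2.86 and 2.08 FPKM and RSPO1 at 0.06, 0.21 and 0.21, and both were lowest in pool 1. The ubiquitin ligases RNF43 and ZNRF3, which remove frizzleds from the cell surface and are restrained by R-spondins, were at 3.45, 3.60 and 3.70 FPKM and at 2.45, 2.52 and 3.09. RNF43 had a range of 0.08 on the log2 scale, smaller than the shift of all genes, and its difference between pools 3 and 1 changed sign under the median ratio, as did that of SMAD7 below. AXIN1, the scaffold of the complex that degrades beta-catenin, was at 25.61, 28.24 and 30.75 FPKM. AXIN2, a feedback target of WNT in many vertebrate tissues, was at 2.08, 2.21 and 4.27 FPKM, with pools 1 and 2 close together and pool 3 higher. Of the nuclear factors, TCF7L2, the main intestinal partner of beta-catenin in mammals, was at 14.36, 12.26 and 14.00 FPKM and LEF1 at 1.34, 1.06 and 2.11.

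Of 25 other genes listed for the WNT pathway, 22 were measured and 16 reached a mean of 1 FPKM, against 73.8% of all genes. Of these 16, 9 were lowest in pool 1 and highest in pool 3, against 39.0% of all genes with such a mean. The opposite order was found in 2, against 16.8%. The beta-catenin gene CTNNB1 was at 151.19, 151.78 and 177.00 FPKM, and CSNK1A1, a kinase that marks beta-catenin for degradation, at 204.48, 176.55 and 153.36. The R-spondin receptor LGR4 was at 43.56, 45.71 and 41.67 FPKM, close to FZD5, the WNT receptor RYK at 26.35, 26.26 and 33.52, and MYC, a target in the crypt, at 30.73, 44.97 and 46.17. LGR5, the crypt stem cell receptor, was at 1.99, 4.86 and 4.80 FPKM. LGR4 thus stood above LGR5 in every pool. WIF1, another secreted WNT antagonist, was the only gene of this list with a range over 1 on the log2 scale, at 2.68, 4.45 and 8.38 FPKM. Such a range was found in 7.06% of all genes.

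BMP4 led the BMP ligands and was 2.50-fold higher in pool 3 than in pool 1. BMP4, a ligand of the villus mesenchyme in mice, was at 10.42, 23.34 and 26 FPKM. BMP6 was at 7.64, 11.20 and 16.35 FPKM, BMP5 at 1.20, 3.22 and 4.47 and BMP2 at 0.99, 3.24 and 3.89. All 4 had a range over 1 on the log2 scale, against 7.06% of all genes, although BMP2 was just under 1 FPKM in pool 1. Pool 1 was the lowest in each, as in 68.9% of all genes with such a range. BMP7 followed the same order at 0.91, 1.26 and 2.26 FPKM. BMP3, which in mammals opposes other BMP proteins, did not: it was at 7.41, 8.09 and 5.27 FPKM, and its share of the summed BMP ligand level was 25.8%, 16.1% and 9.03% in pools 1, 2 and 3. BMP2 was below BMP4 by nearly the same amount in each pool, with a mean difference of -2.50 ± 0.03 in log2(FPKM + 1). On the linear scale, with no pseudocount, the ratio of BMP2 to BMP4 was 0.0950, 0.139 and 0.15. BMP8A and BMP15 had means under 0.1 FPKM, and BMP2K was at 17.16, 19.11 and 16.51.

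The receptors of the pathway varied less than its ligands. BMPR1A, a type I receptor, was at 7.63, 7.21 and 7.26 FPKM and the type II receptor BMPR2 at 4.71, 4.76 and 5.67, while BMPR1B was at 0.05, 0.05 and 0.08. BMPR1A exceeded BMPR1B in all pools, by 2.98 ± 0.05 in log2(FPKM + 1), or 5.55 with a pseudocount of 0.1, since BMPR1B is near 0. The summed receptor level was 12.5 ± 0.50 FPKM and the summed ligand level 45.8 ± 15.3. GREM1, a BMP antagonist made by muscle and fibroblasts around the crypt base in mammals, was at 8.37, 11.07 and 19.82 FPKM, and NOG at 0.41, 0.62 and 1.19. GREM1 held 94.8% ± 0.503 of their sum. The ratio of BMP4 to GREM1 was 1.24, 2.11 and 1.31 in pools 1, 2 and 3, so the outer pools were close and pool 2, where BMP4 was near its level in pool 3 and GREM1 near its level in pool 1, lay above them.

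Among the SMAD proteins, which carry the signal to the nucleus, inhibitory SMAD6 had the highest level. SMAD6, which acts mainly against BMP signals, was at 29.69, 28.77 and 33.79 FPKM and held 42.7% ± 1.16 of the summed SMAD level. SMAD7, which acts against both BMP and TGF-beta signals, was at 7.26, 6.37 and 7.52 FPKM, below SMAD6 in each pool, and SMAD6 minus SMAD7 was 1.98 ± 0.07 in log2(FPKM + 1). SMAD7B, a second gene of that name, was at 0.42, 0.80 and 0.62 FPKM. Of the SMADs that BMP receptors phosphorylate, SMAD5 was at 13.28, 13.57 and 14.94 FPKM, SMAD1 at 6.23, 6.56 and 7.24 and SMAD9 at 0.93, 1.23 and 2.22. SMAD1 lay below SMAD5 by 0.96 ± 0.02, the smallest SD among the 22 measured pairs. SMAD3, of the TGF-beta branch, was at 1.45, 1.14 and 1.33 FPKM. SMAD4, the common partner of both branches, was at 1.51, 1.85 and 3.57 FPKM, with pool 3 apart from the others. SMAD2 is listed as copies on both sex chromosomes, of which hens carry 1 each. SMAD2W was at 6.22, 7.24 and 7.51 FPKM and SMAD2Z at 0.38, 0.76 and 1.69, and since copies of this kind can share reads, the split between them is uncertain. Their sum was 7.93 ± 1.30 FPKM.

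Of 18 other BMP pathway genes listed, 17 were measured and 12 reached a mean of 1 FPKM, against 73.8% of all genes. Among these 12, 7 were lowest in pool 1 and highest in pool 3, against 39.0% of all genes. The opposite order was found in 3, against 16.8%. The target genes of the ID family did not share 1 order of pools. ID2 was at 270.32, 246.28 and 256.14 FPKM, ID3 at 69.32, 59.11 and 53.84, and ID1 at 20.12, 27.87 and 31.17. ID1 was thus highest in the pool where ID3 was lowest. BAMBI, a decoy receptor of the family, was at 103.43, 83.66 and 52.77 FPKM, above BMPR1A and BMPR2 in every pool. The type I receptor ACVR1 was at 27.56, 27.18 and 30.75 FPKM. Of the secreted antagonists, FST was at 0.41, 1.46 and 2.58 FPKM and CHRDL1 at 0.36, 1.0 and 2.05. They were the only genes of the list with a range over 1 on the log2 scale, against 7.06% of all genes.

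Notch receptors were low and close to each other in level, and the summed level of their ligands was higher in every pool. NOTCH1 was at 2.88, 3.29 and 4.28 FPKM and NOTCH2 at 2.41, 3.47 and 4.10. Their order differed between pools. JAG1 was the leading ligand at 13.67, 13.38 and 17.30 FPKM, and JAG2 was at 1.75, 2.80 and 5.72. DLL1 and DLL4, which together maintain the crypt stem cells of mice, were at 6.85, 11.67 and 13.55 FPKM and at 9.77, 10.77 and 9.57. DLL4 lay above DLL1 in pool 1 and below it in pools 2 and 3, with a mean difference of 0.04 ± 0.46 in log2(FPKM + 1) for DLL1 minus DLL4. DLL4 and JAG1 had ranges of 0.16 and 0.35 on the log2 scale, and JAG2 one of 1.29. DLL3 was at 0.32, 0.32 and 0.31 FPKM.

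The HES and HEY repressors, which Notch switches on in many tissues, differed in which pool was highest. HES4 was at 51.39, 46.05 and 43.63 FPKM and HES1, which represses the secretory fate gene ATOH1 in mice, at 8.76, 19.87 and 28.49. HES1 had the largest difference between pools 3 and 1 of the 55 members, 1.60 on the log2 scale, and HES4 a small one of the opposite sign, -0.23. The ratio of HES4 to HES1 was 5.87 in pool 1, 2.32 in pool 2 and 1.53 in pool 3. Within a pool, ratios do not depend on how pools are scaled to each other. HEY1 was at 2.68, 4.52 and 7.50 FPKM, HEY2 at 3.97, 6.11 and 6.36 and HEYL at 0.53, 2.25 and 2.95. HEY genes are also known from vessels and muscle. The endothelial and smooth muscle lists had their lowest and highest sums in the same pools, but so did the fibroblast and crypt lists, among others. A link between these lists and the HEY genes was not tested. HES6 was at 0.20, 0.13 and 0.32 FPKM.

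All 20 measured genes among 21 others listed for Notch reached a mean of 1 FPKM, against 73.8% of all genes. None of these 20 had a range over 1 on the log2 scale, against 7.06% of all genes. ADAM10, the protease that makes the first cut in activated Notch, was at 93.02, 90.61 and 105.10 FPKM, and NCSTN, a subunit of the gamma-secretase that makes the next one, at 33.25, 34.96 and 31.91. The secretory fate factor ATOH1 was at 32.88, 34.77 and 37.32 FPKM, a range of 0.18 on the log2 scale beside that of 1.60 for HES1. NUMB, an inhibitor of Notch, was at 31.58, 29.87 and 29.10 FPKM. Of these 20 genes, 10 were lowest in pool 1 and highest in pool 3, against 39.0% of all genes. The opposite order was found in 2, against 16.8%.

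Hedgehog ligands and the target gene PTCH1 had opposite orders between pools. IHH, the main hedgehog of the mammalian adult intestine, was at 22.02, 19.17 and 17.40 FPKM and SHH at 19.75, 16.69 and 14.15. Both had their highest level in pool 1 and their lowest in pool 3, and IHH minus SHH was 0.21 ± 0.07 in log2(FPKM + 1). PTCH1, the receptor and a target of the pathway, was at 1.94, 2.49 and 2.82 FPKM and the transducer SMO at 5.0, 6.62 and 7.14. Both were lowest in pool 1 and highest in pool 3. The summed ligand level was 21.5 times that of PTCH1 in pool 1, 14.4 times in pool 2 and 11.2 times in pool 3. GLI1, GLI2 and GLI3, the transcription factors of the pathway, summed to 1.04, 2.23 and 2.99 FPKM, and none reached a mean of 1 FPKM. GLI1 was at 0.10, 0.49 and 0.44 FPKM, GLI2 at 0.52, 0.87 and 1.42 and GLI3 at 0.42, 0.87 and 1.13.

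Among other hedgehog genes, HHIP, FOXF1 and FOXL1 had a range over 1 on the log2 scale, against 7.06% of all genes. All 12 other hedgehog genes were measured, and 9 reached a mean of 1 FPKM, against 73.8% of all genes. Of these 9, 7 were lowest in pool 1 and highest in pool 3, against 39.0% of all genes. The other 2, DISP1 and SUFU, had the opposite order, against 16.8%. DISP1, which releases hedgehog from the cells that make it, was at 12.21, 9.28 and 8.62 FPKM, the order of IHH and SHH, and SUFU, an inhibitor of the GLI factors, at 14.06, 13.64 and 12.09. HHIP, which binds hedgehog and is a target of it, was at 1.96, 5.99 and 8.59 FPKM, a range of 1.70 on the log2 scale. FOXF1 and FOXL1, mesenchymal targets of hedgehog in mice, were at 1.20, 2.30 and 4.99 FPKM and at 0.57, 1.22 and 2.67, and FOXL1 there marks the subepithelial cells that make WNT proteins. FOXF1 and FOXL1 were 4.16-fold and 4.68-fold higher in pool 3 than in pool 1, beside 3.14-fold for the summed fibroblast markers. Single fibroblast markers were 2.19-fold to 3.98-fold higher and single smooth muscle markers 1.82-fold to 4.73-fold. FOXL1 was under 1 FPKM in pool 1, where a fold is least precise.

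Levels set against cell type genes of the same pool show how far members kept pace with them. The ratio of IHH to CDH1, the epithelial cadherin, was 0.142, 0.143 and 0.146 in pools 1, 2 and 3, that of SHH 0.127, 0.124 and 0.119, and that of FZD5 0.369, 0.398 and 0.367. As mean ± SD these ratios were 0.144 ± 0.00240, 0.123 ± 0.00413 and 0.378 ± 0.0175. Against EPCAM, another gene of the whole epithelium, the ratio of IHH was 0.00989, 0.00955 and 0.00893 and that of SHH 0.00887, 0.00831 and 0.00726. The ratio of FZD5 to EPCAM was 0.0257, 0.0267 and 0.0224, with pool 3 lowest. Against VIL1, the brush border villin, IHH was at 0.0321, 0.0292 and 0.0343, SHH at 0.0287, 0.0254 and 0.0279 and FZD5 at 0.0834, 0.0814 and 0.0861. In FPKM, pool 3 was at 0.790 times pool 1 for IHH, 0.716 times for SHH and 0.762 times for FZD5. Single enterocyte markers were at 0.217 to 0.799 times, and most of them fell further than IHH, SHH or FZD5 did. Against the collagen gene COL3A1, WNT2B was at 0.144, 0.118 and 0.103 and BMP4 at 0.219, 0.204 and 0.137, while against COL1A1 WNT2B was at 0.190, 0.255 and 0.239 and BMP4 at 0.289, 0.442 and 0.319. The direction between pools 1 and 3 thus turned with the marker. Of the 12 fibroblast and stroma markers, WNT2B was higher in pool 3 than in pool 1 relative to 5 and lower relative to 7, and BMP4 higher relative to 3 and lower relative to 9. These markers were 2.19-fold to 3.98-fold higher in pool 3, beside 2.85-fold for WNT2B and 2.50-fold for BMP4. GREM1, 2.37-fold higher in pool 3, was higher relative to 2 of 12 fibroblast and stroma markers and lower relative to 10. Of 12 smooth muscle markers, GREM1 was higher relative to 3 and lower relative to 9. It was at 0.0498, 0.0496 and 0.0649 against the tropomyosin gene TPM2 and at 0.0864, 0.0630 and 0.0641 against the muscle actin gene ACTG2. These denominators were chosen with earlier results of these data known.

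**Figure D3:**
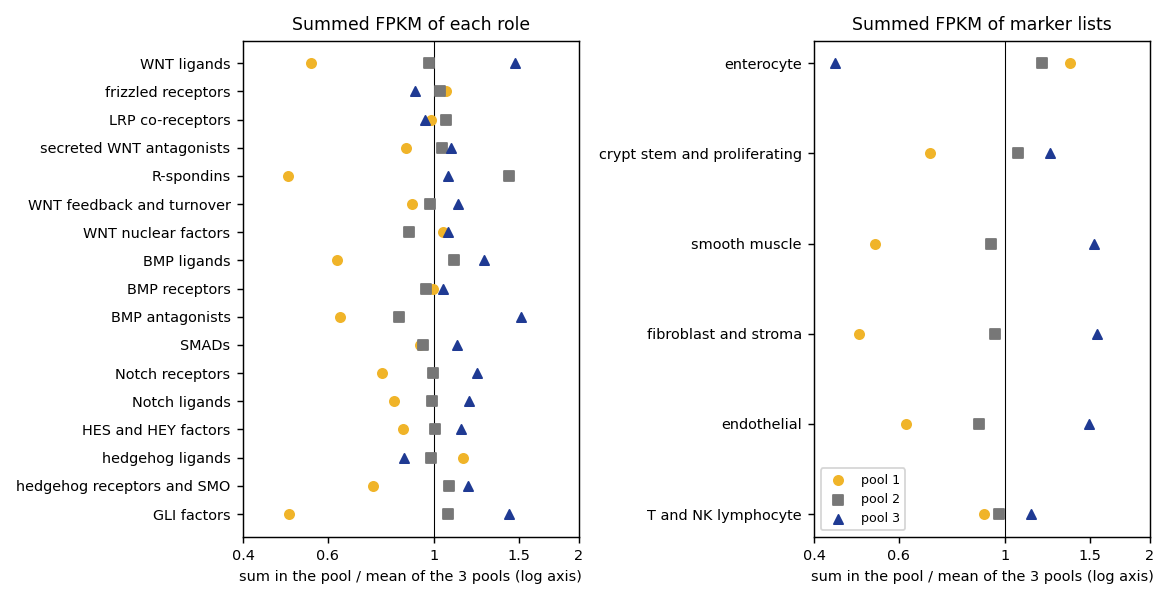
Summed FPKM of each role (left) and of 6 marker lists (right) in each pool, divided by the mean of the 3 pools (log axis). WNT ligands, BMP ligands and GLI factors have pool 1 lowest and pool 3 highest, as do most other roles and every marker list shown except the enterocyte one. Hedgehog ligands and frizzled receptors have the order of the enterocyte markers.

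Within pools, 19 of 22 measured pairs of related or opposing genes had the same order in all 3 pools, and the order differed for NOTCH1 and NOTCH2, DLL1 and DLL4, and HEY1 and HEY2. In 13 pairs the mean difference was over 1 in size on the log2(FPKM + 1) scale. AXIN1 exceeded AXIN2 by 2.96 ± 0.32 and JAG1 exceeded JAG2 by 1.93 ± 0.49. WNT5A exceeded WNT5B by 1.57 ± 0.20 and WNT2B exceeded WNT4 by 1.23 ± 0.21. LEF1 minus TCF7L2 was -2.56 ± 0.25, NOG minus GREM1 -2.96 ± 0.26, HES1 minus HES4 -1.40 ± 0.93 and RSPO1 minus RSPO3 -1.31 ± 0.38, or -2.95 with a pseudocount of 0.1. With that pseudocount NOG minus GREM1 was -3.99, LEF1 minus TCF7L2 -3.14, WNT5A minus WNT5B 2.24 and AXIN1 minus AXIN2 3.33. Smaller differences in 1 direction were found for RNF43 minus ZNRF3, at 0.32 ± 0.10, BMP5 minus BMP7, at 0.62 ± 0.37, and SFRP1 minus SFRP2, at 0.71 ± 0.48. With 3 pools, flipping the signs of the differences in an exact permutation test (two-sided) reaches at best p = 0.25, the value of all 19 pairs with 1 order, so these orders are descriptions. Gene family members can share reads, and the order within such pairs carries that uncertainty.

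**Figure D4:**
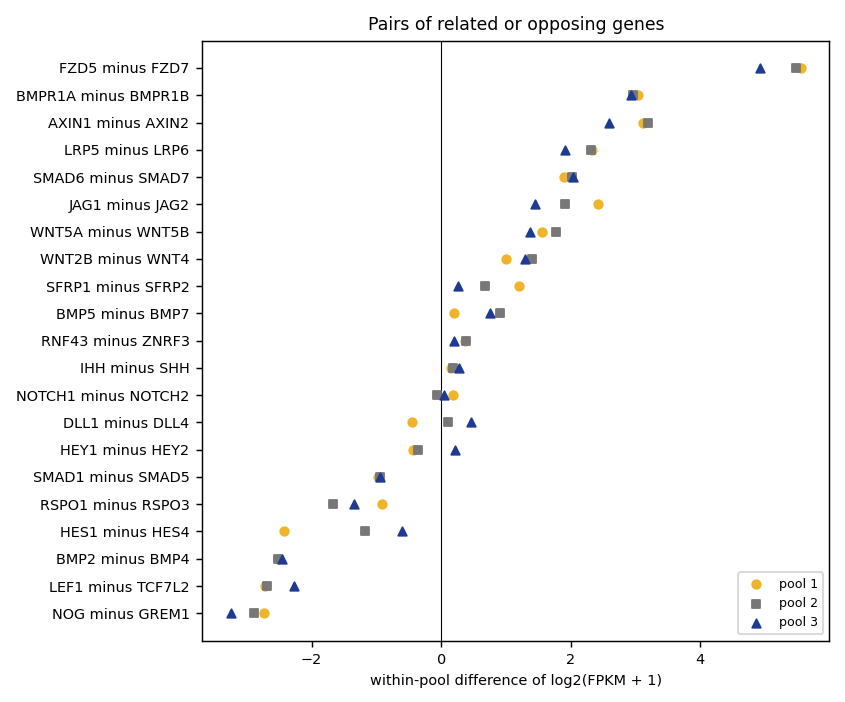
Within-pool difference of log2(FPKM + 1) between both genes of 21 pairs, 1 symbol per pool. The points of BMP2 minus BMP4 and SMAD1 minus SMAD5 nearly coincide, those of HES1 minus HES4 lie between -2.42 and -0.60, and 3 pairs cross 0.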

How the data were processed

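RNA from 3 pools of 4 control hens was sequenced, after poly(A) selection or ribosomal RNA removal per the labels' protocols. Tools listed in the submitters' processing notes are HISAT2 2.0.1, HTSeq 0.6.1, cutadapt 1.9.1 and DESeq2, with build GRCg6a of the chicken genome. The annotation and strand setting were not given in the sources used here. The values are FPKM per the file headers, with 2 decimals, used as deposited, with sums of 939772, 948742 and 936084. The authors also deposited estimated counts, which did not follow the FPKM of their row (Pearson's r across genes of 0.009, 0.006 and 0.005 on the log2 scale) and gave no expression value. A further 6 columns match no sample and were not used. FPKM give no count, so depth and counting intervals are unknown.

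Differences were taken on the log2(FPKM + 1) scale, where the pseudocount shrinks those of low genes. With 1 group, no comparison between groups and no model across genes was made. Whether the spread between pools reflects hens or technique cannot be told from the labels. Members were matched to the FPKM table by symbol, and 83 of 87 symbols, with 1 synonym, were found among RefSeq genes of assembly GRCg7b. The members, the 76 other pathway genes, the 13 marker lists and the 24 pairs were chosen with earlier results of these data known. Of the pairs, 1 was left out because SMAD2 is listed as 2 copies, and 1 because both genes were under 1 FPKM. Values in every pool are given for up to 3 members of each role by mean FPKM, the 8 with the widest range, both genes of a pair that reach 1 FPKM and up to 4 other genes per pathway; further members, pathway genes such as LGR5, WIF1, FST, CHRDL1, FOXL1, RYK and DISP1, and EPCAM and CDH1 were named after their values were seen. The difference between pools 3 and 1, the order of pools and the range were tested on simulated data. There, all genes had the same noise and only genes of at least 5 FPKM were changed. The other steps were not simulated. Alternatives were other pseudocounts and minimums, rescaled pools, the mean in place of the median, and leaving out each pool in turn. Python 3.11.15, numpy 2.4.6, pandas 2.3.3 and matplotlib 3.10.9 were used. One member and 1 pair are counted but not reported here by name or shown in the figures of single genes.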

Additional observations from a re-analysis of the deposited data

How the results depend on the processing

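The number of members with a mean at the minimum was 55 at 1 FPKM, 65 at 0.5 FPKM and 31 at 5 FPKM. It lay between 54 and 60 with a pool left out. The number with a range over 1 on the log2 scale was 13 as reported and 20 with a pseudocount of 0.1, where 11.9% of all genes had such a range. It was 5 over members of at least 5 FPKM, where 5.39% of all genes had it, and between 0 and 13 with a pool left out, 0 being the value without pool 1. Under the median ratio it was 11, against 6.35% of all genes. The number lowest in pool 1 and highest in pool 3 was 16 over the 31 members of at least 5 FPKM, against 34.6% of all genes there. It was 29 under the median ratio, against 29.1%, and 42 of 56 without pool 2, against 64.3%. With a minimum of 0.5 FPKM it was 43 of 65, against 39.5%, and with no minimum 45 of 87, against 35.7%. In the other alternatives it was 35, and it could not be formed without pool 1 or pool 3. The median difference between pools 3 and 1 was between 0.19 and 0.56 in all alternatives that give it, and always above that of all genes in the same setting. The number of pairs with 1 order was 19 or 20 throughout, but with a pseudocount of 0.1 the mean difference of 11 of 22 pairs moved by more than its SD, and none turned. Leaving out BMP2K, chosen after seeing the data, moved no count by more than 1. Under the median ratio, RNF43 and SMAD7 changed the sign of their difference, and no member did so under the other scaling or pseudocount. No pairing of samples between groups was possible because there is only 1 group.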

Other observations

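SMAD2 was 1 of 3 genes that the table lists as a W and a Z copy, and it differed from the other two in which copy was higher. SMAD2W was above SMAD2Z in every pool, and the ratio of SMAD2W to SMAD2Z was 16.4, 9.53 and 4.44 in pools 1, 2 and 3. ATP5A1W, of the mitochondrial ATP synthase, was at 177.65, 188.02 and 158.61 FPKM, below ATP5A1Z at 371.84, 397.64 and 341.24. SPIN1W, of a chromatin reader, was at 3.76, 4.95 and 6.61 FPKM, below SPIN1Z at 12.24, 16.30 and 17.86. The copies can share reads, how such reads were assigned is not given in the sources used here, and these pairs were looked up after the SMAD2 values were seen.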
